A study of Homo sapiens with 20 samples.

Results

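Translation initiation and elongation factor genes were taken as the protein-coding genes of GENCODE release 44 whose symbols start with EIF or EEF followed by a digit, which gave 71 of 20046 coding genes. They hold 15 genes with the EIF2 prefix, 14 with EIF3, 16 with EIF4, 5 with EIF5, 12 with EEF1 and 9 others (EIF1 and its relatives, EIF6, EEF2 and its regulators). Of these genes, 56 were kept as factors proper, among them the readthrough gene EEF1E1-BLOC1S5. The rest are kinases, cap-binding inhibitors, methyltransferases and the readthrough gene EEF1AKMT4-ECE2. EEF1AKMT4 and EEF1E1 each share a promoter with a readthrough gene (EEF1AKMT4-ECE2 and EEF1E1-BLOC1S5), so every summit there was counted for both names.

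The study mapped the transcription factor MYC and POL2, the polymerase that makes mRNA, by ChIP-seq in PC-3, an established human prostate cancer cell line. Wild-type cells (WT) were compared with PSD10 cells, in which SLK, a STE20-family kinase, is knocked out (SLK-KO). Each antibody was used on 3 biological replicates of each genotype, which gave the 12 summit lists used here. The labels name PSD10 as the only knockout and do not say whether it is 1 clone, so a property of that derivative and the loss of SLK cannot be told apart. A summit is the single base where a called peak is highest. A gene was counted as having one when it lay no more than 1 kb from any annotated transcript start (TSS) of the gene. SLK itself had a POL2 summit in 2 WT and 3 SLK-KO libraries. This does not bear on the knockout, which need not alter the promoter. All 5 epithelial marker genes (KRT8, KRT18, KRT19, EPCAM and CDH1) had a POL2 summit in at least 1 library, as did CD68 alone of 4 leukocyte genes, and COL1A1 and PECAM1 of 4 stromal and endothelial genes. The MYC lists held 201 to 365 summits in WT and 988 to 1420 in SLK-KO. The POL2 lists held 5047 to 17126 in WT, WT replicate 2 being the shortest, and 15436 to 19017 in SLK-KO. Read depth is unknown, so a longer list may reflect more binding, deeper sequencing or a better immunoprecipitation, which cannot be told apart.

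Initiation in eukaryotes starts when the EIF2 complex brings the initiator tRNA to the small ribosomal subunit and the large EIF3 complex binds that subunit and helps it take up messenger RNA. The EIF4F proteins (the cap-binding EIF4E, the scaffold EIF4G1 and the helicase EIF4A1) load the mRNA, EIF5 and EIF5B lead to joining of the large subunit, and EEF1 and EEF2 then drive elongation. MYC binds DNA with its partner MAX, best at the E-box CACGTG, and genes of protein synthesis are among its textbook targets.

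Several of the MYC sites at these genes can be read directly in the reference genome. The sequences that follow show, for each of 7 genes, the E-box with the lowest summed distance to its MYC summits. Each is shown 5′ to 3′ on the strand of the gene (GRCh38), with the CACGTG in capitals.
EEF1AKMT3: ctctaccaaatcCACGTGgaggcgcaggcc
EEF1AKMT4: ggacggaagttcCACGTGtttgtgttgagc
EEF1E1: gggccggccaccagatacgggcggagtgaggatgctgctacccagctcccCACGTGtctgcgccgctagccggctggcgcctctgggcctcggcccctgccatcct
EIF4A1: ctgtcgcctccgCACGTGtgagagtgcagg
EIF4G1: cgatccccggccCACGTGtgcctggcccgg
EIF4H: acgccgccgcacCACGTGggctgcagagcg
EIF2B5: agtcggaatcgcCACGTGgaaacagctctc

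The EEF1AKMT3 site (chr12:57772102-57772131, plus strand) lies upstream of the gene and inside an exon of its divergent neighbour METTL1, and the MYC summits of all 6 libraries fell 1.5 to 55.5 bp from the centre of its E-box. The EEF1AKMT4 site (chr3:184249563-184249592, plus strand) had 3 of 4 summits within 100 bp. The EEF1E1 stretch (chr6:8102258-8102363, minus strand) overlaps no annotated exon, and its 3 summits lay 2.5 to 35.5 bp from the E-box. The EIF4A1 site (chr17:7572519-7572548, plus strand) lies upstream of EIF4A1 in an exon of the readthrough gene SENP3-EIF4A1 and had 3 of 4 summits within 100 bp. The EIF4G1 site (chr3:184314823-184314852, plus strand) overlaps no annotated exon and had 2 of 5 summits within 100 bp, and counting every E-box of that promoter raised this to 4 of 5. The EIF4H site (chr7:74174145-74174174, plus strand) had 1 of 3, and the EIF2B5 site (chr3:184134163-184134192, plus strand), which lies in an exon of the divergent transcript EIF2B5-DT, had its only summit 6.5 bp away.

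No MYC summit at EIF3B, EIF2S3, EIF2S1 or EEF1A1 had a CACGTG within 100 bp. Variants with 1 changed letter (CACGCG and CATGTG, each on either strand) were looked for after the positions of the summits had been seen. Which variant is shown was picked gene by gene, not by a distance rule. Of its copies within 100 bp of a summit, the one with the lowest summed distance is in capitals, again on the strand of the gene.
EIF3B: ccccgtcgcacgCACATGgctgggctgtag
EIF2S3: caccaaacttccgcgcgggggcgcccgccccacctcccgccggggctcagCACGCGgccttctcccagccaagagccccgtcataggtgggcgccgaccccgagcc
EIF2S1: cgcaatacgcggCACGCGccaggccaaaga
EEF1A1: cgctggggccgcCGCGTGcgaatctggtgg

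The EIF3B stretch (chr7:2354812-2354841, plus strand) lies at the start of EIF3B, in an annotated exon, and all 6 summits fell 2.5 to 62.5 bp from the letters in capitals. Both EIF2S3 summits lay 14.5 and 15.5 bp from the CACGCG of its stretch (chrX:24054390-24054495, plus strand), which overlaps no exon. The EIF2S1 site (chr14:67359998-67360027, plus strand) had its 3 summits 69.5 to 90.5 bp away, and the EEF1A1 site (chr6:73520771-73520800, minus strand) had 2 of 3 within 100 bp. A match is a description of the letters and not a test of binding. Within 100 bp of a MYC summit, CACGTG stood at 28 of 67 distinct positions at the translation factor genes (41.8%), at 32.6% of 3499 positions at all coding promoters and at 5.67% of 19971 canonical start sites. CACGCG stood at 22.4%, 32.2% and 10.7% of the same sets, and CATGTG at 22.4%, 13.6% and 5.23%. The translation factor positions are the best-scored summit of each gene in each library, while the coding promoter positions are all summits near a TSS. The shares at translation factor genes and at all coding promoters are thus not counted alike. The part of this choice in their differences was not tested.

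MYC was found at more translation factor promoters in SLK-KO than in WT libraries when the full lists were read, and at equal numbers when the lists were made equally long. In WT, 6, 5 and 8 of the 71 genes had MYC at a TSS (replicates 1, 2 and 3), or 8.92% ± 2.15 (SD, n = 3). In SLK-KO, 17, 23 and 15 had one, or 25.8% ± 5.86 (SD, n = 3), a difference of 16.9 percentage points with no overlap between the genotypes. Over all coding genes the same shares were 1.42% ± 0.395 and 5.5% ± 0.861. After every MYC list was cut to its 201 best-scored summits, the length of the shortest, the counts were 3, 5 and 8 in WT and 5, 7 and 4 in SLK-KO. The mean was then 7.51% in both genotypes, and 1.06% and 1.01% over all coding genes.

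**Figure D1:**
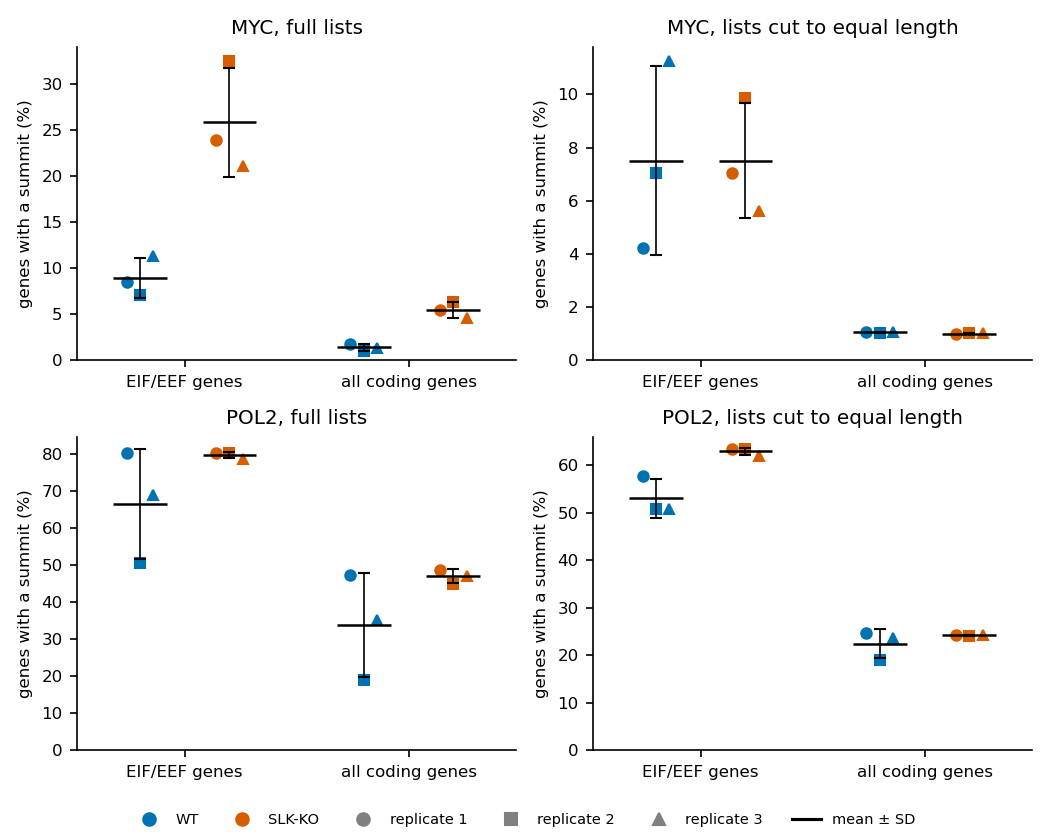
Share of genes with a summit at a TSS (y axis, percent) for the 71 EIF and EEF genes and for all coding genes, each point 1 library, bars the mean and SD of 3. The upper panels show MYC, where the genotypes stand apart in the full lists (left) and overlap at 201 summits per list (right), and the lower panels show POL2, in full lists and at 5047 summits per list.

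In all, 28 of the 71 genes (39.4%) had a MYC summit in at least 1 library, against 9.65% of all coding genes. All 28 also had POL2 in at least 1 library. Among genes with POL2, MYC was found at 48.3% of the translation factor genes and 17.7% of all coding genes. MYC stood in all 6 libraries at 3 genes (4.23%), against 0.494% of coding genes. It stood in 3 SLK-KO and 0 WT libraries at 5 genes (7.04%), against 0.873%. Of the 28, 22 had MYC in more SLK-KO than WT libraries (78.6%, against 88.0% of all coding genes with MYC), 5 in equal numbers, and EIF2B5 alone in more WT libraries. The share that leaned toward SLK-KO was thus below that of all MYC-bound coding genes, and this difference was not tested.

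A test of each gene could not reach significance in this design. With 3 libraries against 3, the exact two-sided permutation test has 20 relabellings and cannot give a p below 0.1. Of 1935 coding genes with MYC and 10778 with POL2, 0 passed at an unadjusted p under 0.05, and every Benjamini-Hochberg adjusted p for presence was 1. No other tool was run.

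The 3 genes with MYC in every library were EIF3E, EIF3B and EEF1AKMT3. EIF3E, a subunit of the EIF3 complex, had its best summit at ranks 10, 7 and 7 of the WT lists and 14, 15 and 9 of the SLK-KO lists, rank 1 being the highest score. Its scores, read as the −log10 of the peak's q-value, were 34.9, 29.6 and 30.0 in WT and 42.2, 42.9 and 40.8 in SLK-KO. Its summits lay 4 to 50 bp upstream of a TSS, each with an E-box within 60.5 bp, and the start of EMC2 lies 105 bp away on the opposite strand.

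EIF3B, a core subunit of EIF3, stood at ranks 8, 30 and 18 in WT and 20, 14 and 30 in SLK-KO. Its scores were 40.3, 13.9 and 21.5 in WT and 37.9, 43.3 and 26.6 in SLK-KO, so the genotypes overlapped in both measures. The 6 summits fell within 68 bp of each other (chr7:2354764-2354832), and SNX8 starts 223 bp away on the opposite strand.

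EEF1AKMT3, a lysine methyltransferase that modifies the elongation factor EEF1A, stood at ranks 92, 13 and 14 in WT and 21, 33 and 76 in SLK-KO. Its summits spanned 69 bp (chr12:57772061-57772130). METTL1, a tRNA methyltransferase gene, starts 81 bp away on the opposite strand, so a summit there cannot be assigned to one of the pair. Re-ranked among the 99 coding genes with MYC in all 6 libraries, none of the 3 genes was ahead in every library of a genotype. Across the 99, 10.1% were ahead in every SLK-KO library and 7.07% in every WT library, and the smallest adjusted p was 0.582 (exact permutation test).

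**Figure D2:**
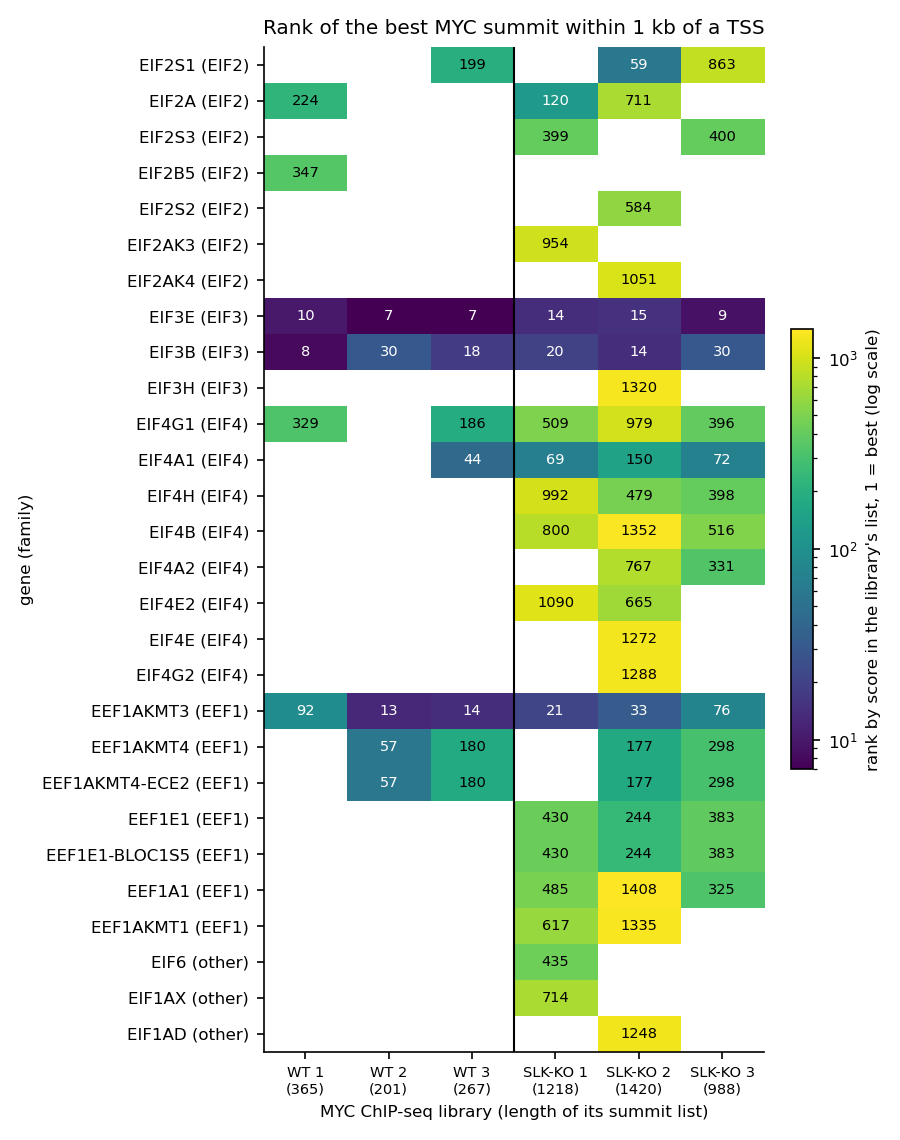
Rank of the best MYC summit at each of the 28 genes with one (rows, by family) in the 6 MYC libraries (columns, with the length of each list in brackets); colour is rank on a log scale and a blank cell means no summit. EIF3E, EIF3B and EEF1AKMT3 fill all 6 columns with ranks of 92 or better, and most cells filled in SLK-KO alone hold ranks past 365, the length of the longest WT list.

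The cap-binding and helicase genes of the EIF4 family showed the widest gap between genotypes among the groups of genes, counted in genes. Of these 12 genes, 1, 0 and 2 had MYC in WT and 5, 8 and 5 in SLK-KO. All 8 that ever had MYC had it in more SLK-KO than WT libraries, as did 88.0% of all coding genes with MYC. At 201 summits per list, the whole EIF4 family had 0, 0 and 2 genes with MYC in WT and 1, 1 and 1 in SLK-KO.

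EIF4A1, the helicase of EIF4F, ranked 44 in WT replicate 3, was absent from the other WT lists, and ranked 69, 150 and 72 in SLK-KO. Its score was 15.0 in that WT library and 20.8, 14.6 and 16.9 in SLK-KO. It was 1 of 2 genes, with EIF2A (1 SLK-KO and 0 WT libraries), that kept more SLK-KO than WT libraries at equal length. More WT libraries were kept at 3 genes, namely EEF1AKMT4, its readthrough partner and EIF4G1. Shares over all coding genes are not given for these counts. EIF4G1, the scaffold of EIF4F, ranked 329 and 186 in WT replicates 1 and 3 and 509, 979 and 396 in SLK-KO. Its gain by library count turned round at equal length, where MYC was left in 1 WT library and in no SLK-KO library (a difference of -33.3 percentage points of libraries).

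EIF4B and EIF4H, both cofactors of the helicase, had MYC in 3 SLK-KO and 0 WT libraries. EIF4B ranked 800, 1352 and 516, with scores of 4.5, 2.1 and 5.4, and its summits were spread over 790 bp. EIF4H ranked 992, 479 and 398, with scores of 3.4, 7.5 and 6.8, over 760 bp. EIF4A2, the second EIF4A helicase, ranked 767 and 331 in SLK-KO replicates 2 and 3. EIF4E2, a cap-binding relative of EIF4E, ranked 1090 and 665 in SLK-KO replicates 1 and 2, and TIGD1 starts 102 bp away on the opposite strand. EIF4E itself (rank 1272) and EIF4G2 (rank 1288) were found in SLK-KO replicate 2 alone, the longest list. None of the 4 inhibitor genes EIF4EBP1, EIF4EBP2, EIF4EBP3 and EIF4ENIF1, which bind and restrain EIF4E, had MYC in any library.

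The EEF1 family had MYC at 1, 3 and 3 of its 12 genes in WT and 5, 7 and 6 in SLK-KO, and at 1, 3 and 3 against 1, 3 and 1 at equal length. EEF1A1, which delivers aminoacyl-tRNA to the ribosome, had no WT summit and ranked 485, 1408 and 325 in SLK-KO, with scores of 7.1, 1.6 and 7.7. EEF1E1, known as AIMP3 and a part of the multisynthetase complex, had no WT summit and ranked 430, 244 and 383 in SLK-KO, with scores of 7.5, 10.8 and 6.8. Those 3 summits fell within 59 bp of each other, at the E-box shown above. EEF1AKMT4 ranked 57 and 180 in WT replicates 2 and 3 and 177 and 298 in SLK-KO replicates 2 and 3, and ALG3 starts 124 bp from it on the opposite strand. EEF1AKMT1 ranked 617 and 1335 in SLK-KO replicates 1 and 2.

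In the EIF2 family, MYC stood at 2, 0 and 1 of 15 genes in WT and at 3, 4 and 2 in SLK-KO. EIF2A, an initiator-tRNA binding factor, ranked 224 in WT replicate 1 and 120 and 711 in SLK-KO replicates 1 and 2. EIF2S1, the alpha subunit that the stress kinases phosphorylate, ranked 199 in WT replicate 3 and 59 and 863 in SLK-KO replicates 2 and 3. ATP6V1D starts 63 bp from a TSS of EIF2S1 and SERP1 177 bp from one of EIF2A, both on the opposite strand. Summits there cannot be assigned to one gene of a pair. EIF2S3, the gamma subunit, ranked 399 and 400 in SLK-KO replicates 1 and 3, with summits at -488 and -489 bp from a TSS, the minus sign marking upstream. EIF2S2 and the kinase genes EIF2AK3 and EIF2AK4 were found in 1 SLK-KO library each, at ranks 584, 954 and 1051. The EIF2AK3 summit lay at -221 bp from a TSS other than the canonical one. The nearest POL2 summit of the same replicate number was 63760 bp away. RPIA starts 155 bp from a TSS of EIF2AK3 on the opposite strand, so this MYC summit cannot be assigned to one of the pair. EIF2B5, the catalytic subunit of the exchange factor EIF2B, had a summit at rank 347 of WT replicate 1 alone.

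Beyond EIF3B and EIF3E, the only EIF3 gene with MYC was EIF3H, at rank 1320 of SLK-KO replicate 2. On the opposite strand, UTP23 starts 250 bp from a TSS of EIF3H. The EIF5 family and the EEF2 group (EEF2, EEF2K and EEF2KMT) had no MYC summit in any library. EIF6, which keeps the ribosomal subunits apart, and the scanning factor EIF1AX were found in SLK-KO replicate 1 (ranks 435 and 714). EIF1AD was found in SLK-KO replicate 2 (rank 1248), and BANF1 starts 52 bp from it on the opposite strand. Differences between the families were not tested.

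**Figure D3:**
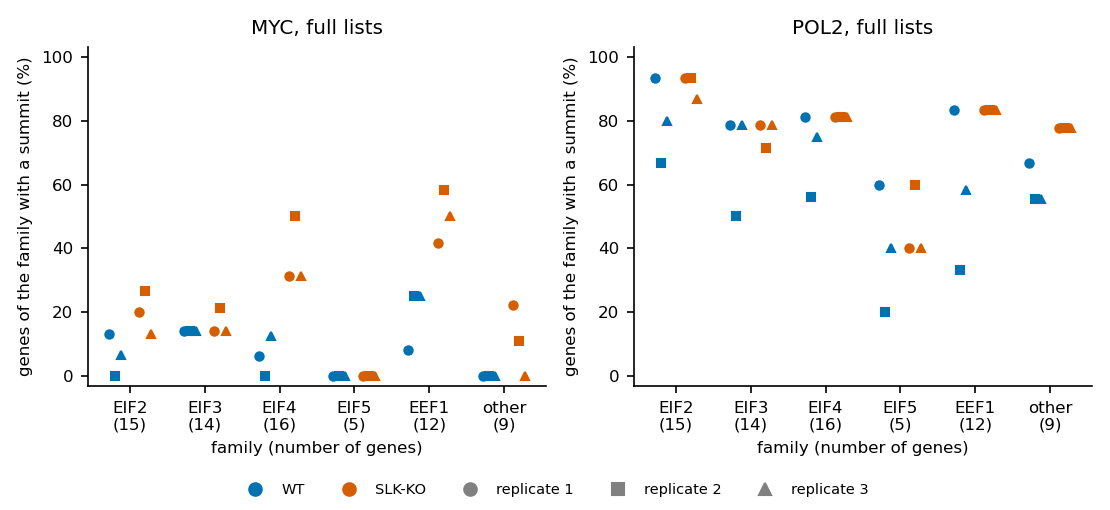
Share of each family's genes bound by MYC (left) or POL2 (right) at a TSS in the full lists (y axis, percent), each point 1 library, with the number of genes under each family. In MYC the EIF4 and EEF1 points of SLK-KO stand above those of WT, the EIF3 points overlap and the EIF5 points are all at 0.

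Of the 18 genes with MYC in SLK-KO alone, 9 had it in 1 library, 4 in 2 and 5 in 3. The best rank of 14 of them was past 365, the length of the longest WT list (77.8%, against 83.1% of the 1417 coding genes with MYC in SLK-KO alone), and none was within the first 201 (against 5.65%). The low ranks were thus no more frequent at these genes than at others. The nearest to the top were EEF1E1 and its readthrough partner (best rank 244), EEF1A1 (325) and EIF4A2 (331). With only summits of score 5 or more, 2 genes in place of 5 had MYC in 3 SLK-KO and 0 WT libraries, and the difference in share was 11.7 points. No share over all coding genes is given for that count of 2.

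E-boxes were more frequent under the WT summits of these genes. CACGTG stood within 100 bp of 4 of 6, 3 of 4 and 5 of 7 distinct summits in WT, or 71% ± 4.18 (SD, n = 3). It stood at 33.3%, 30.4% and 43.8% of the summits in SLK-KO, or 35.8% ± 7 (SD, n = 3), so the difference was -35.2 points and the genotypes did not overlap. At all coding promoters the shares were 42.8% ± 2.76 and 30.4% ± 0.51. At equal list length the difference at the translation factor genes fell to -9.37 points. Over the longer stretch of 1 kb to each side of the canonical TSS, 49.3% of the 71 genes held a CACGTG, against 29.2% of all coding genes. The share was 50% in those with MYC, 48.8% in all those without, and 40% in those with POL2 but no MYC. Among all coding genes it was 50.6% with MYC and 28% with POL2 but no MYC.

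The distances of the MYC summits from a TSS depended on the length of the lists. In the full lists, the 19 gene and library pairs of WT had a median distance from the nearest TSS of -70 bp, with 57.9% within 100 bp. EIF3E, EIF3B and EEF1AKMT3 gave 9 of these pairs, and the summits of each lay within 46, 68 and 69 bp of each other across both genotypes. In SLK-KO the 55 pairs had a median of -5 bp but a wider spread, with 40% within 100 bp and a median absolute distance of 173 bp, against 71 bp in WT. Over all coding genes the median absolute distances were close, 113 bp in WT and 115 bp in SLK-KO. The genotypes differ here in which genes they hold, and the order turned round at 201 summits per list, an alternative chosen after seeing the data. There the median absolute distance was 79 bp over 16 pairs in WT and 35 bp over 16 in SLK-KO, with 56.2% and 68.8% within 100 bp. A POL2 summit of the same replicate number lay within 250 bp of 71% ± 4.18 (SD, n = 3) of the WT MYC summits and of 50.3% ± 6.05 of those in SLK-KO, a difference of -20.7 points. That difference was -7.65 points when 500 bp was allowed. At all coding promoters the shares within 250 bp were 48.8% and 56%, with overlapping genotypes.

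**Figure D4:**
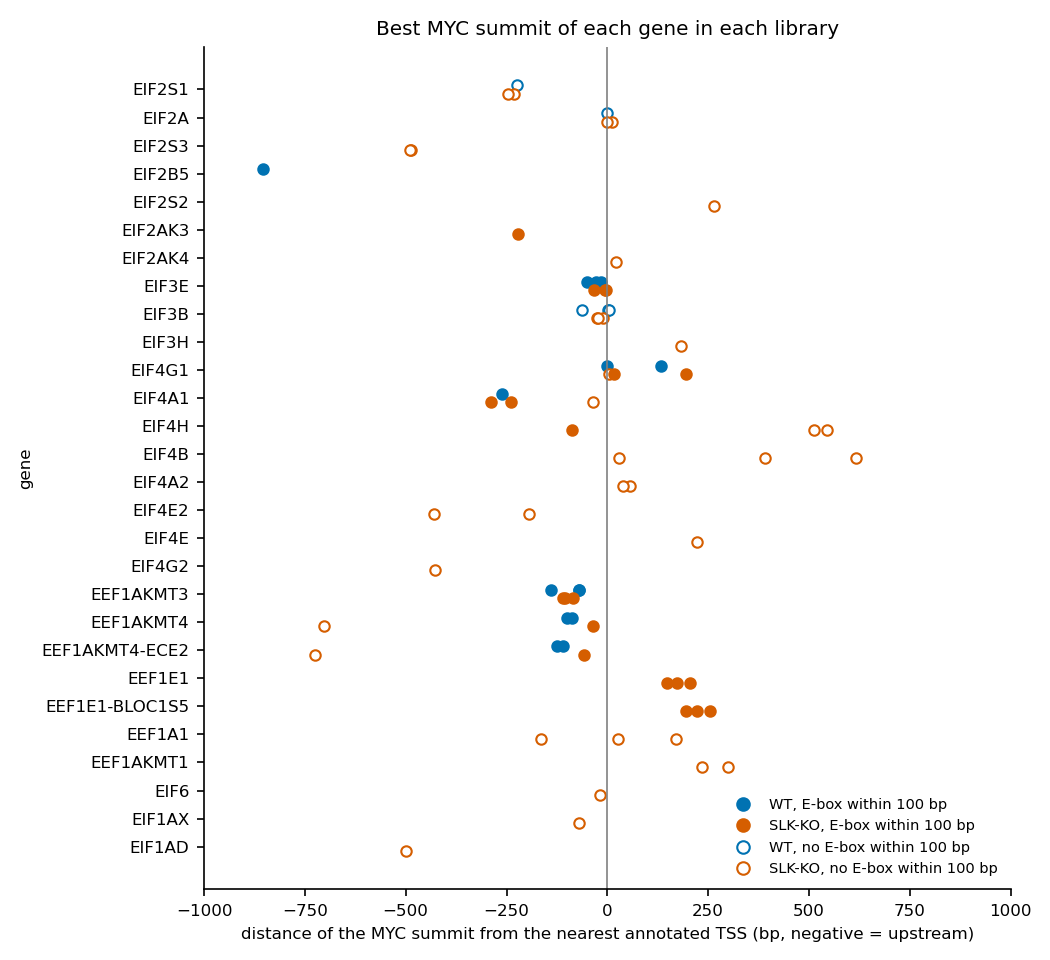
Distance of each best MYC summit from the nearest annotated TSS (x axis, bp, negative upstream) for the 28 genes (rows), blue for WT and orange for SLK-KO, filled where CACGTG lies within 100 bp of the summit. All 12 points of EIF3E and EEF1AKMT3 are filled, all 6 of EIF3B are open, and the points beyond 500 bp on either side are of EEF1AKMT4, its readthrough partner, EIF2B5, EIF4B and EIF4H.

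POL2 occupied most translation factor promoters in both genotypes. It was found at 58 of the 71 genes in at least 1 library (81.7%, against 53.8% of all coding genes), and in all 6 libraries at 36 (50.7%, against 18.0%). The counts were 57, 36 and 49 in WT and 57, 57 and 56 in SLK-KO, which is 66.7% ± 14.9 and 79.8% ± 0.813 of the genes (SD, n = 3), and the genotypes overlapped. The difference of 13.1 points was 5.16 without WT replicate 2 and 20 without WT replicate 1. EEF2KMT, the methyltransferase of EEF2, was the only gene with POL2 in 3 SLK-KO and 0 WT libraries (1.41%, against 1.54%), at ranks 10379, 12448 and 9273. Without WT replicate 1, that count was 7, for which no share over all coding genes is given here. All 19 genes with POL2 in 3 SLK-KO and fewer than 3 WT libraries lacked it in WT replicate 2.

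At 5047 summits per list the share was 53.1% ± 4.07 in WT (41, 36 and 36 genes) and 62.9% ± 0.813 in SLK-KO (45, 45 and 44 genes), a difference of 9.86 points with no overlap. Over all coding genes it was 22.5% ± 2.96 and 24.2% ± 0.168. More SLK-KO than WT libraries held POL2 at 15 of the 49 genes that had it in at least 1 of these shortened lists (30.6%, against 31.6% of such coding genes), and fewer at 4 (8.16%, against 22.1%), namely EIF2B4, EIF2B5, EIF3H and EIF3M. The share with more SLK-KO libraries was thus near that of all coding genes, while the share with more WT libraries was below it. Neither difference was tested. EEF1E1, its readthrough partner and EIF1B, a close relative of the start-codon factor EIF1, had POL2 in 3 SLK-KO and 0 WT libraries of this length, which 0.998% of coding genes did. No translation factor gene had the opposite pattern, which 0.454% of coding genes did. In the full lists EEF1E1 ranked 5780 in WT replicate 1 and 4236, 1752 and 3201 in SLK-KO, and EIF1B ranked 5348 in WT replicate 1 and 2215, 2301 and 1276 in SLK-KO.

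The best-ranked POL2 promoters were those of EIF4G2, EEF1A1, EIF4A2, EIF1 and EIF4A1. EIF4G2, an EIF4G relative that acts without EIF4E, ranked 68, 121 and 87 in WT and 57, 56 and 107 in SLK-KO. EEF1A1 ranked 110, 69 and 73 in WT and 75, 89 and 81 in SLK-KO, and its 6 summits lay within 15 bp of each other. EIF4A2 ranked 87, 108 and 84 in WT and 62, 107 and 91 in SLK-KO. The genotypes overlapped at these 3 genes. EIF1 ranked 143, 146 and 162 in WT and 125, 106 and 146 in SLK-KO. EIF4A1 ranked 325, 331 and 440 in WT and 293, 283 and 297 in SLK-KO, with no overlap. A high POL2 rank did not go with MYC at every one of them, since EIF1 had no MYC summit and EIF4G2 had 1.

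Ranks were also compared within the 3615 coding genes that had POL2 in all 6 libraries, so that lists of unequal length could be set side by side. Of the 36 translation factor genes there, 7 were ahead in every SLK-KO library (EIF1, EIF2AK4, EIF3J, EIF3L, EIF4A1, EIF4EBP2 and EIF4G1) and 3 in every WT library (EEF1AKMT4, its readthrough partner and EIF2S2). EEF1AKMT4 and its readthrough partner were counted from the same summits, which lay at -780 to -822 bp from the TSS of EEF1AKMT4. On the opposite strand, ALG3 starts 124 bp from EEF1AKMT4 and ANKRD54 45 bp from EIF3L. Summits there cannot be assigned to one gene of a pair. Across all 3615 genes, 14.9% were ahead in every SLK-KO and 14.9% in every WT library. In that set EIF3J, a loosely bound EIF3 subunit, ranked 1353, 2430 and 1480 in WT and 667, 702 and 973 in SLK-KO. EIF2AK4, the kinase GCN2 that senses uncharged tRNA, ranked 2890, 2039 and 1921 in WT and 1170, 1535 and 1504 in SLK-KO. EIF4A1 ranked 310, 316 and 434 in WT and 280, 264 and 282 in SLK-KO. In the other direction EIF2S2, the beta subunit of EIF2, ranked 474, 813 and 395 in WT and 866, 960 and 954 in SLK-KO. None passed the threshold, the smallest adjusted p over all genes being 0.335 (exact permutation test).

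**Figure D5:**
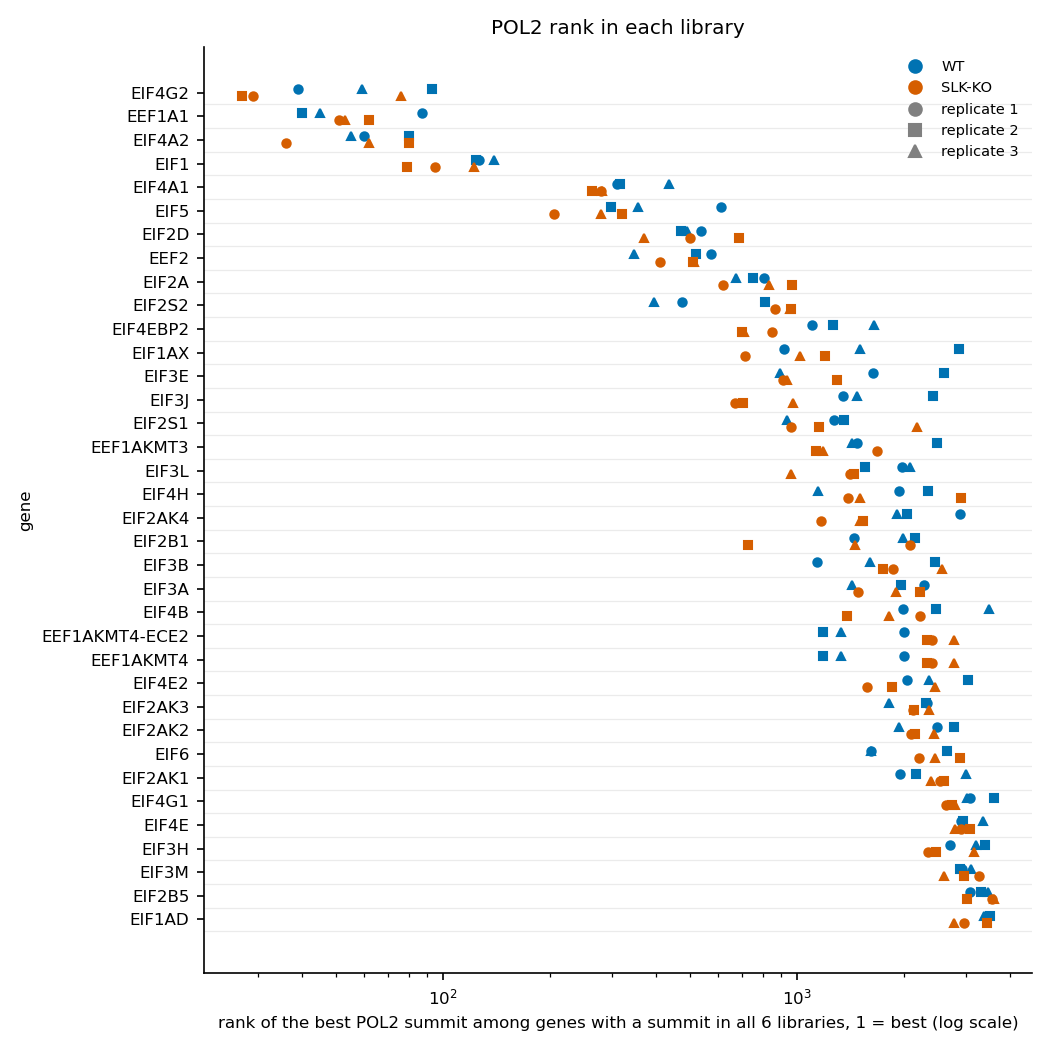
Rank of the best POL2 summit among the 3615 coding genes with POL2 in all 6 libraries (x axis, log scale, 1 is best) for the 36 translation factor genes in that set (rows), each point 1 library. EIF4G2, EEF1A1 and EIF4A2 sit under rank 100 in every library, and the orange SLK-KO points of EIF3J and EIF2AK4 lie left of all their blue WT points.

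By family, POL2 stood at 14, 10 and 12 of the 15 EIF2 genes in WT and 14, 14 and 13 in SLK-KO. For EIF3 the counts were 11, 7 and 11 of 14 in WT and 11, 10 and 11 in SLK-KO. For EIF4 they were 13, 9 and 12 of 16 in WT and 13, 13 and 13 in SLK-KO. For EEF1 they were 10, 4 and 7 of 12 in WT and 10, 10 and 10 in SLK-KO. At equal length the EEF1 counts were 6, 4 and 4 against 9, 7 and 8, with no overlap. These counts hold EEF1E1 and its readthrough partner, each with 0 WT and 3 SLK-KO libraries from the same summits. With each shared promoter counted once, the genotypes would meet. Those of EIF2 were 11, 10 and 10 against 10, 11 and 10, those of EIF3 10, 7 and 9 against 9, 10 and 9, and those of EIF5 1, 1 and 2 against 2, 2 and 1, all overlapping. EIF4 had 9, 9 and 7 against 9, 10 and 10, and the other genes 4, 5 and 4 against 6, 5 and 6, where the genotypes met at 9 and at 5 genes. All 4 kinase genes of the EIF2AK group had POL2 in all 6 libraries. EIF5, which triggers hydrolysis of GTP on EIF2, was the only EIF5 gene with POL2 in all 6.

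In the lists used here 13 genes had no POL2 summit. These lists may hold only some of the called summits, so a missing summit does not show that POL2 was absent. Those were EEF1B2, EEF1D, EEF2K, EIF1AY, EIF2S3B, EIF3C, EIF3CL, EIF3K, EIF4A3, EIF4E1B, EIF4E3, EIF5A and EIF5AL1. The nearest POL2 summit of any library was 2537 bp from a TSS of EIF4E1B, 64200 bp from EIF5A, the factor modified with hypusine, 73120 bp from EIF4A3, the helicase of the exon junction complex, and 453967 bp from EEF1B2, the exchange subunit of EEF1. It was 24071 bp away at EIF5AL1, 36536 bp at EEF1D, 87809 bp at EIF3C, 88409 bp at EIF3CL, 107631 bp at EIF2S3B, 140575 bp at EIF4E3, 207702 bp at EIF3K and 686104 bp at EEF2K, and EIF1AY had none on its chromosome. At 4 of the 13 (EEF1D, EIF3C, EIF3CL and EIF5AL1), over 50% of the 50-base stretches around the canonical TSS occurred again elsewhere in the reference with its alternate sequences, against 0 of the 58 genes with POL2. Among all coding genes the shares were 14.3% without POL2 and 0.557% with it. The part of such repeats in the missing summits was not tested, and at EIF5A the share was 1.55%.

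Genes that act beside these factors were read in the same way, from a list of 31 that hold release factors, poly(A)-binding proteins and regulators of the pathway. MYC stood at 5, 3 and 3 of them in WT and 8, 9 and 6 in SLK-KO, with mean shares of 11.8% ± 3.72 and 24.7% ± 4.93 (SD, n = 3). PABPC1, the cytoplasmic poly(A)-binding protein, and LARP1, which controls mRNAs of the translation machinery, had MYC in all 6 libraries. None had it in 3 SLK-KO and 0 WT libraries. POL2 stood at 28, 17 and 27 of the 31 in WT and 27, 27 and 28 in SLK-KO.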

How the data were processed

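ChIP-seq summit lists of 12 libraries (MYC and POL2, WT and SLK-KO, 3 each) were read, leaving aside the IgG and Input samples. The authors ran nf-core/chipseq 2.1.0 on paired reads of 50 bp, with GRCh38.p14 as the reference, per the labels. Per the submitters' processing notes, BWA 0.7.18-r1243 and MACS3 3.0.1 were among the tools. Whether peaks were called against Input is not given in the sources used here. Each list was deposited per library, not pooled. Its score was read as the −log10 q-value that the authors' peak caller gave, from the values alone: the lowest score is 1.3, and −log10 of 0.05 is 1.3. No summit lay past the end of a GRCh38 chromosome.

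From these lists, presence no more than 1 kb from any annotated TSS (GENCODE 44), distance, rank by score within the list, E-box (CACGTG) within 100 bp and POL2 within 250 bp were computed with Python 3.11.15, numpy 2.4.6 and pysam 0.24.0. WT and SLK-KO were compared gene by gene with exact two-sided permutation tests and Benjamini-Hochberg adjustment over all coding genes tested. The rules were run on simulated data only to check that planted patterns were found, which for presence was certain by construction. P-values measure the spread between 3 libraries. Alternatives were other windows, the canonical TSS, a score of at least 5, equal list length, factors proper only, pairing by replicate number and leaving out each library.

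Genes were named with full values if MYC stood in all 6 libraries, if MYC or POL2 stood in 3 libraries of one genotype and 0 of the other, or if their median rank was among the 5 best. Other genes with values were chosen after those had been seen. Genes without POL2 were named with distances. The genes and lists were chosen with earlier results of these data known. A further marker list is not reported here. Sequences are from the GRCh38 reference. Read depth is unknown, so no counting intervals are given.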

Additional observations from a re-analysis of the deposited data

How the results depend on the processing

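The difference in share of genes with MYC (16.9 points) was 11.7 with a score of at least 5 and 0 at equal list length. Genes with MYC in 3 SLK-KO and 0 WT libraries numbered 5, then 2 and 0 under the same 2 settings. The POL2 count of that kind was 1, then 2 with a score of at least 5, 3 at equal length and 0 among factors proper. The E-box difference (-35.2 points) was -28.5 within 500 bp of a TSS, -28.3 with a score of at least 5, -9.37 at equal length, -25.7 among factors proper, and -23.3 and -26.1 with 50 and 250 bp around the summit. The POL2 proximity difference (-20.7) was -7.65 within 500 bp. The median absolute distance of MYC summits from a TSS was 102 bp longer in SLK-KO than in WT, and the difference was -44 bp at equal length, a setting chosen after seeing the data. EIF4G1 turned from more SLK-KO to more WT libraries for MYC at equal length (-33.3). Leaving out each library in turn gave 13.6 to 19.2 points for the MYC share, 5 to 7 genes for MYC in 3 SLK-KO and 0 WT, 3 to 4 for MYC in all 6, 5.16 to 20 points for the POL2 share, 1 to 7 genes for POL2 in 3 SLK-KO and 0 WT, 36 to 48 for POL2 in all 6, -39.1 to -32.5 points for the E-box share and -23.8 to -17.8 for POL2 proximity. Except for POL2 at equal length, the counts of genes under these alternatives are given without their shares over all coding genes. Per-gene tests gave 0 genes at an adjusted p under 0.05 in every setting run. Equal length and the score minimum remove summits by construction; the cause of the other changes was not tested. Libraries with the same number did not vary together. Correlations of their deviations lay between -0.0193 and 0.052 in the MYC lists and between -0.0157 and 0.0528 in the POL2 lists. With 3 libraries per group, such values cannot show whether libraries of one number share a batch. With the replicate block, differences in share were 16.9 and 13.1 points for MYC and POL2, -35.2 for the E-box and -20.7 for POL2 proximity, per-gene tests gave 0 genes (exact permutation by sign flips cannot go under p = 0.25), and no call changed. Without read counts, a missing summit is not a missing protein, and ranks compare order within a list, not occupancy.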
